A study of Trichoderma reesei QM6a with 6 samples.

Results

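A set of 3 genes of protein folding in the secretory pathway of the filamentous fungus Trichoderma reesei, pdi1 (TRIREDRAFT_122415), bip1 (TRIREDRAFT_122920) and hac1 (TRIREDRAFT_46902), was followed by their locus tags through the deposited gene table, which held 9113 genes, and all 3 had counts in every library and passed the low count filter. Poly(A) RNA was sequenced from the strain QM6a, the wildtype, and from an ace1 deletion made in QM6a (Δace1), with 3 libraries of each. Ace1 is a zinc finger protein known in this fungus as a repressor of cellulase and xylanase genes. Mycelium of both strains was grown with shaking for 24 h on 1% D-glucose, washed, and then kept for 3 h on 1% D-mannitol, at 28 °C and 250 rpm. The labels do not say whether Δace1 is a single transformant or whether the replicates were separate cultures, and p-values here cover only the spread among these samples. In such bulk RNA, fewer cells carrying a transcript and less of it per cell cannot be told apart. The reference table gives the symbols pdi1 and bip1; TRIREDRAFT_46902 has no symbol there, and the name hac1 was taken as supplied with the locus tag.

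Proteins bound for secretion fold in the endoplasmic reticulum, where BiP, an Hsp70 chaperone encoded by bip1, holds unfolded chains and the protein disulfide isomerase encoded by pdi1 forms and reshuffles disulfide bonds. When unfolded protein builds up, the membrane sensor Ire1 cuts an intron out of the hac1 mRNA, and the bZIP transcription factor made from it raises the genes of chaperones and foldases, a circuit known as the unfolded protein response. In T. reesei the hac1 mRNA is also shortened at its 5′ end under secretion stress, and pdi1 and bip1 are known targets of the response. The deposited counts are per coding sequence, so they give the amount of hac1 mRNA and do not separate its spliced and unspliced forms.

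Estimated counts summed to between 5482552 and 6424125 per Δace1 library and to between 6072118 and 6938203 per QM6a library. The deleted gene, ace1, was at 6 to 14 counts in the Δace1 libraries, compared with 7765 to 8432 in those of QM6a. For pks4 (TRIREDRAFT_82208), a conidial pigment gene that marks conidia, the Δace1 libraries gave 7 to 12 counts and the QM6a libraries 4 to 8. The composition of the libraries differed between the strains: the scaling factors of TMM, which brings the bulk of genes to a common level, were 1.17 to 1.20 in Δace1 and 0.818 to 0.856 in QM6a. The mean effective transcript length behind the TPM values (harmonic, weighted by counts) was 877 to 911 bases in Δace1 and 737 to 746 bases in QM6a. The sign of small changes depended on the scaling, so they are given below on more than 1 scale.

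Among the 3 genes hac1 rose in Δace1 on each scale used, bip1 was slightly lower with TMM and higher per library total and in TPM, and pdi1 was level with TMM and higher on the other 2. In edgeR's quasi-likelihood test with TMM, 2 of the 3 genes passed a Benjamini-Hochberg adjusted p of 0.05, against 80.8% of the 7769 genes tested, so a call as such was the common case here. In order of change hac1 came before pdi1 and pdi1 before bip1. A library scaling shifts all genes nearly alike, so this order does not depend on it. Together they took 0.160% to 0.167% of all counts in Δace1 and 0.104% to 0.109% in QM6a.

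**Figure D1:**
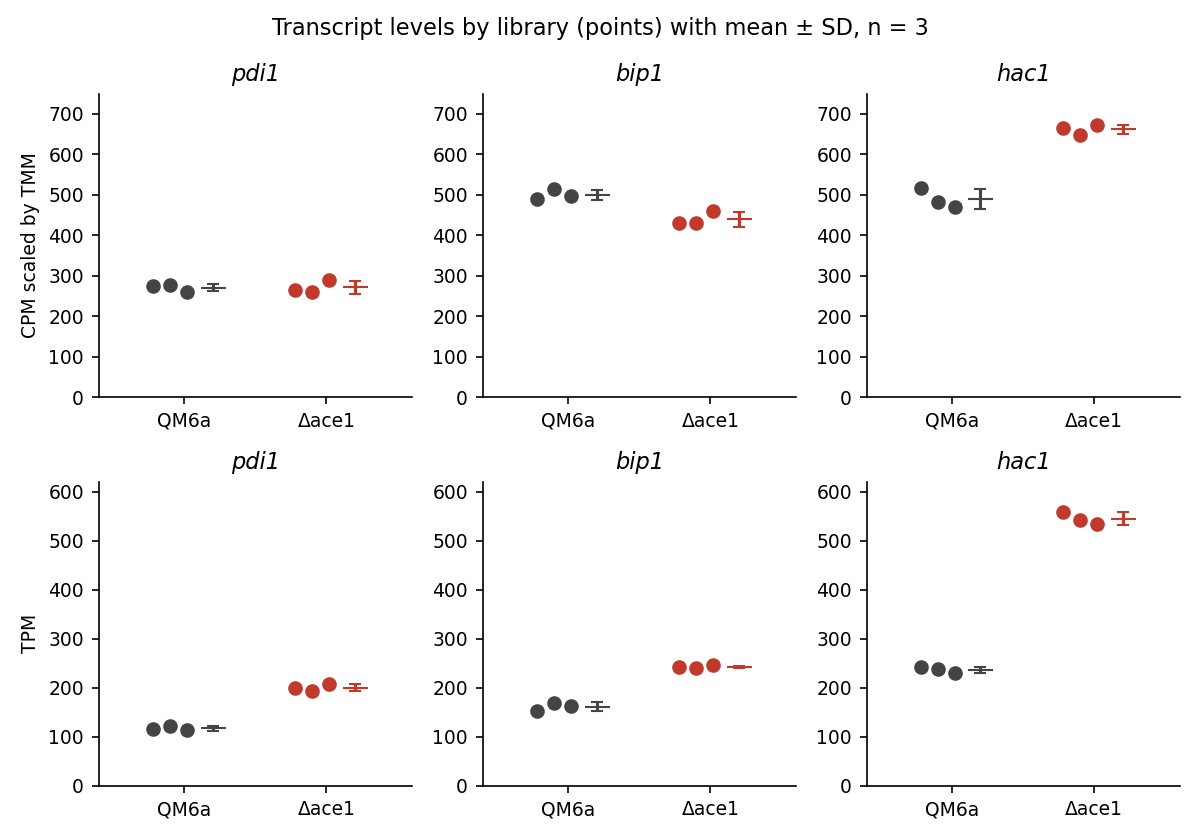
Levels of pdi1, bip1 and hac1 in each library, as CPM scaled by TMM (top row) and as TPM (bottom row), with points for libraries and bars for the mean ± SD (n = 3). The pdi1 points of the strains overlap in CPM, and in TPM all Δace1 points lie above all QM6a points for each gene. On log2(TPM + 1) 69.4% of all genes tested were called higher.

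For the regulator gene hac1 the Δace1 libraries (replicates 1 to 3) gave 5101, 4521 and 4319 counts, and the QM6a libraries gave 2937, 2505 and 2476. Scaled by TMM these were 665, 648 and 671 CPM in Δace1 against 518, 482 and 470.1 CPM in QM6a. The lowest Δace1 library stood above the highest QM6a library. The means were 661 ± 11.9 and 489.8 ± 24.7 CPM (SD, n = 3 each), and hac1 rose by 0.43 ± 0.06 (SE) on the log2 scale (edgeR, adjusted p = 9.68e-06). With TMM 41.2% of the tested genes were called higher. The hac1 change was larger and also called with library totals (0.93) and on log2(TPM + 1) (1.20). It was 0.59 with upper-quartile scaling. Under RLE (0.42), DESeq2 (0.41) and on the deposited normalized counts (0.41) it was slightly smaller than with TMM. All of these were called too. In TPM, which is a level per transcript length, hac1 was at 560, 542 and 535 in Δace1 and at 242, 237 and 230.4 in QM6a. This is a 2.31-fold difference of the mean TPM, compared with 1.35-fold for the mean CPM. By TPM hac1 stood at ranks 303 to 324 of the 9113 genes in Δace1 and at ranks 476 to 519 in QM6a. A rank within a library needs no scaling between libraries, but it depends on how the other genes changed. By TPM bip1 and pdi1 also ranked higher in Δace1 (below).

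For the chaperone gene bip1 the Δace1 libraries gave 3295, 2993 and 2963 counts, and the QM6a libraries gave 2771, 2672 and 2615. Its estimated counts were whole numbers in 4 of 6 libraries, and in the other 2 they held a fraction of a read, as kallisto gives where reads are shared between transcripts. With TMM it was at 429, 429 and 460.3 CPM in Δace1 and at 488, 514 and 497 CPM in QM6a, and the groups did not overlap. The means of 439.5 ± 18.0 and 499.6 ± 13.1 CPM (SD, n = 3 each) correspond to a log2 difference of -0.18 ± 0.06 (SE; edgeR, adjusted p = 0.0105). With TMM 39.5% of the tested genes were called lower. As with TMM, bip1 was called lower with RLE (-0.20), DESeq2 (-0.20) and on the deposited normalized counts (-0.21). The call was lost with upper-quartile scaling (-0.03). Scaled by library totals (0.31) and on log2(TPM + 1) (0.58) bip1 was called higher, as were 60.6% and 69.4% of the tested genes. The bip1 call with TMM also failed without QM6a replicate 2 (-0.16, adjusted p = 0.0605) and without Δace1 replicate 2 (-0.17, adjusted p = 0.0521). In TPM bip1 was at 242, 239.9 and 246 in Δace1 and at 152, 169 and 163 in QM6a. Its rank by TPM was 645 to 687 in Δace1 and 689 to 727 in QM6a, so the ranks of the strains lay close together without overlap.

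For the disulfide isomerase gene pdi1 the Δace1 libraries gave 2033, 1808 and 1869 counts, and the QM6a libraries gave 1561, 1442 and 1368. With TMM these were 265, 259 and 290.4 CPM in Δace1 and 275, 277 and 259.7 CPM in QM6a, and the strains overlapped. The means of 271 ± 16.6 and 270.7 ± 9.59 CPM (SD, n = 3 each) differed by a log2 change of 0.0035, with a 95% interval of -0.13 to 0.14 (edgeR, adjusted p = 0.963). The bip1 change with TMM (-0.18) had a 95% interval of -0.31 to -0.06, which overlaps that of pdi1. With upper-quartile scaling pdi1 was called higher (0.16, adjusted p = 0.0303 in edgeR; 47.4% of the tested genes were called higher), as it was with library totals (0.50) and on log2(TPM + 1) (0.77). In TPM it was at 199, 194 and 207 in Δace1 and at 115, 122 and 114 in QM6a, with ranks of 775 to 849 and 943 to 997.

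**Figure D2:**
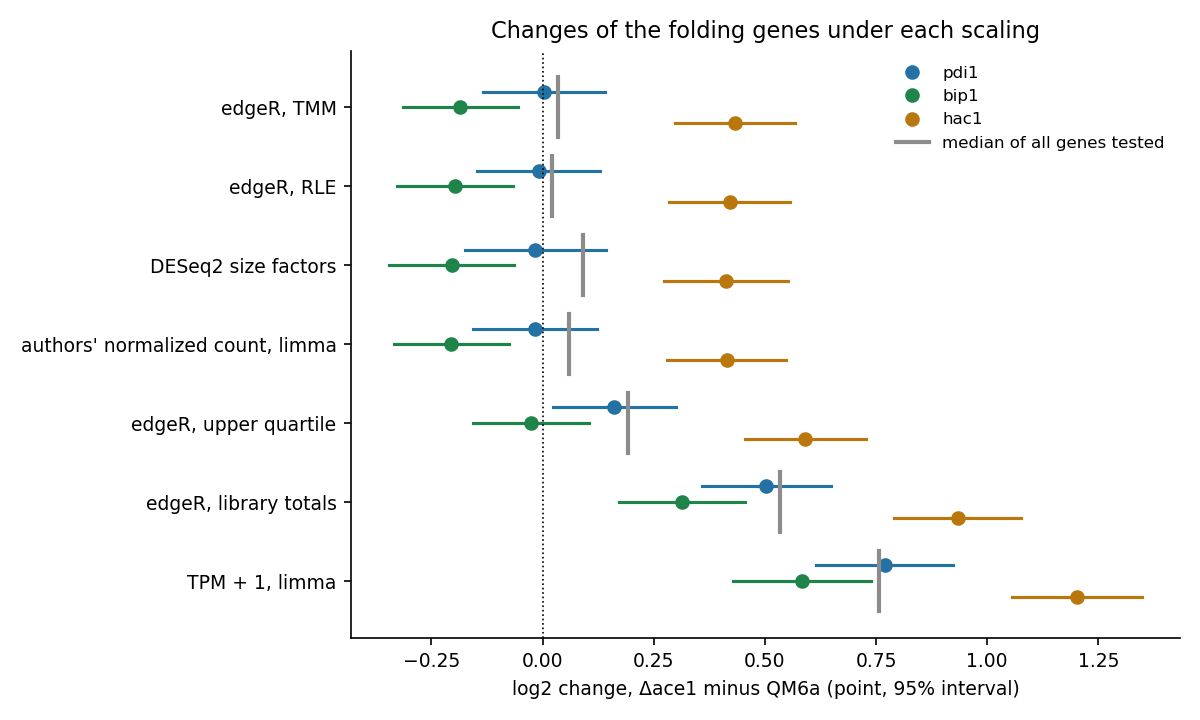
The log2 change of each gene (x axis, Δace1 minus QM6a) under 7 ways of scaling (rows), with 95% intervals and, as grey bars, the median change of all genes tested. The median moves from 0.03 with TMM to 0.76 on log2(TPM + 1), and the 3 genes move along with it.

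Against its value with TMM, the median change over all genes stood 0.16 higher (log2) under upper-quartile scaling, 0.50 higher under library totals and 0.72 higher on log2(TPM + 1). A scaling shifts the 3 genes and the median nearly alike. Measured from that median, hac1 was higher by 0.40 with TMM, upper-quartile scaling and library totals, and the difference was 0.45 on log2(TPM + 1). The corresponding differences of bip1 were -0.22 on the first 3 of these scales and -0.17 on log2(TPM + 1). Those of pdi1 were -0.03 on the same 3 scales and 0.01 on log2(TPM + 1), so pdi1 lay next to the median gene on these scales. With DESeq2, where the median was taken over 8859 genes, the differences were 0.32 for hac1, -0.30 for bip1 and -0.11 for pdi1. With TMM 63.5% of the tested genes had a lower change than hac1, 48.8% a lower change than pdi1 and 41.7% a lower change than bip1. In size, 30.5% of the genes changed by less than hac1 with TMM, so all 3 lay among the smaller changes on that scale. For hac1 that share was 52.2% with library totals and 60.7% on log2(TPM + 1).

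**Figure D3:**
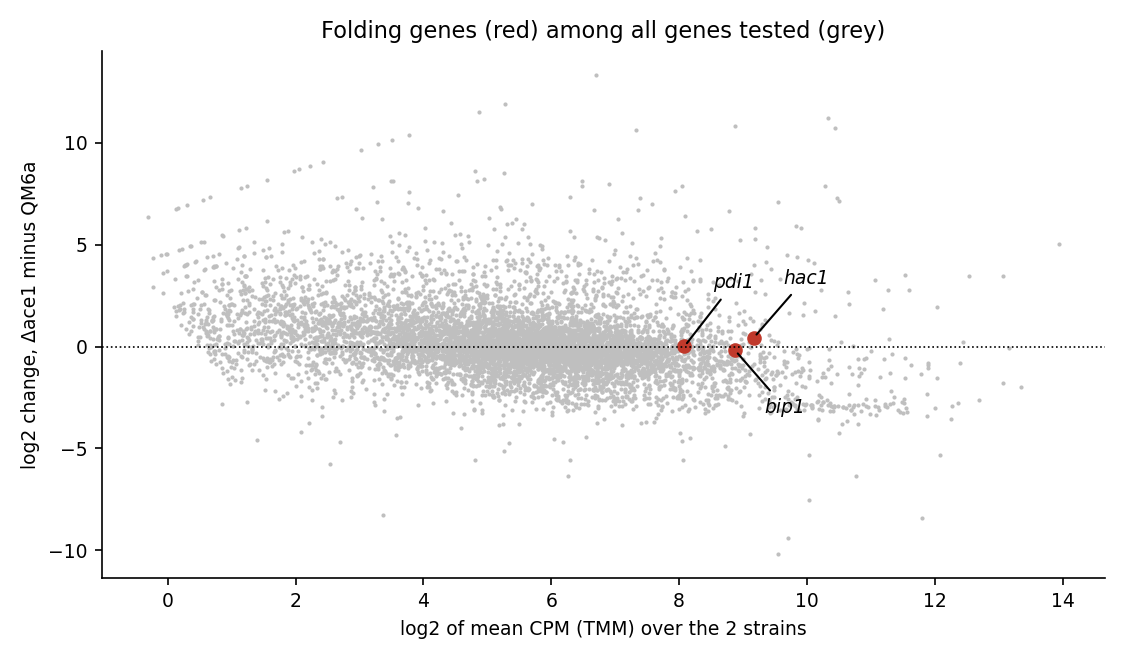
Change of every gene tested (y axis, log2, Δace1 minus QM6a, edgeR with TMM) against its mean level (x axis, log2 CPM), with pdi1, bip1 and hac1 in red. The 3 genes lie at high levels and close to a change of 0, inside the spread of the other genes.

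Ratios between the genes within a library do not depend on the scaling. Per transcript length (TPM), hac1 exceeded bip1 2.31-, 2.26- and 2.18-fold in Δace1 and 1.58-, 1.40- and 1.42-fold in QM6a. The ratio was thus higher in each Δace1 library than in any QM6a library, and on the log2 scale of the counts it differed by 0.62. The TPM ratio of hac1 to pdi1 was 2.73 ± 0.125 in Δace1 and 2.02 ± 0.0807 in QM6a (SD, n = 3 each), a log2 difference of 0.43. The ratio of pdi1 to bip1, the foldase to the chaperone, was 0.825 ± 0.0178 in Δace1 and 0.724 ± 0.0270 in QM6a (SD, n = 3 each), a log2 difference of 0.19. For none of the 3 ratios did the strains overlap. How often ratios of other genes separate the strains was not counted. With TMM 80.8% of the tested genes were called, but a share of single genes does not give the share of ratios. Whether such a separation is particular to these genes was therefore not tested. Each of the 3 ratios had p = 0.1 in a two-sided exact permutation test, the smallest p that 3 against 3 libraries allow. After adjustment over the 3 ratios p was 0.1. The order of the levels by TPM was hac1, bip1, pdi1 in all 6 libraries.

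**Figure D4:**
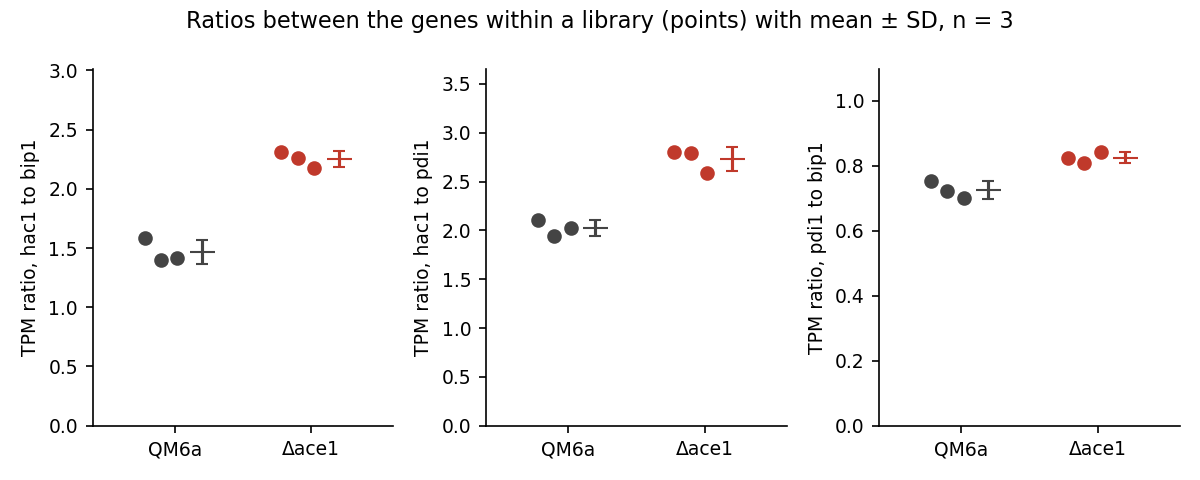
Ratios of TPM values between pairs of the 3 genes in each library (points), with the mean ± SD of each strain (n = 3). All Δace1 points lie above all QM6a points in each panel, by the widest margin for hac1 to bip1.

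Of the 65 symbols listed for folding, glycosylation and vesicle transport, 17 were in the reference table, pdi1 and bip1 among them, which left 15 other genes, all tested. With TMM 4 of these 15 rose, 8 fell and 3 did not pass the test, where 41.2% of all tested genes were called higher, 39.5% lower and 80.8% in either direction. The 15 had a median log2 change of -0.16 beside 0.03 over all genes tested. The split was 9 higher and 3 lower with library totals, where 60.6% and 23.8% of all tested genes were called higher and lower. It was 12 higher and 1 lower on log2(TPM + 1), where the shares of all tested genes were 69.4% and 16.9%. With TMM 1 of the 15 had a higher change than hac1, and 7 had a lower change than bip1.

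Of the genes that act on the hac1 mRNA or its sensor, ire1 and ptc2 were found. The sensor kinase and RNase gene ire1 was at 387, 398 and 431 CPM in Δace1 and at 612, 619 and 619.9 CPM in QM6a. It fell by 0.61 on the log2 scale with TMM (edgeR, adjusted p = 1.45e-07), was not called with library totals (-0.11) and was called higher on log2(TPM + 1) (0.16). The phosphatase gene ptc2, whose product in Saccharomyces cerevisiae dephosphorylates Ire1, was at 213, 221 and 242 CPM in Δace1 and at 471, 508 and 524 CPM in QM6a. It fell by 1.15 on the log2 scale with TMM, and was also called lower with RLE (80.9% of tested genes called), upper-quartile scaling, library totals (-0.65), TPM (-0.38) and DESeq2 (68.5% of tested genes called). The TPM ratio of hac1 to ire1 was 4.64 ± 0.230 in Δace1 and 2.25 ± 0.129 in QM6a, and that of bip1 to ire1 was 2.06 ± 0.0414 and 1.54 ± 0.0341 (SD, n = 3 each). The TPM ratio of hac1 to ptc2 was 2.85 ± 0.168 and 0.952 ± 0.101 (SD, n = 3 each). These 3 ratios were chosen after the values were seen and are descriptions. In each the strains did not overlap, and the share of other ratios without overlap was not counted.

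The list also held mpg1, pmt1 and dpm1, genes of protein glycosylation. The gene of GDP-mannose pyrophosphorylase, mpg1, which makes the mannose donor, was at 256 ± 7.74 CPM in QM6a and 135 ± 7.29 CPM in Δace1 (SD, n = 3 each), and fell by 0.92 on the log2 scale. The O-mannosyltransferase gene pmt1 was at 144 ± 8.09 and 88.9 ± 6.86 CPM, and fell by 0.70 on the log2 scale. Both stayed called lower with library totals, and neither was called on log2(TPM + 1) (-0.15 and 0.07). The dolichol phosphate mannose synthase gene dpm1 differed by -0.11 with TMM, which missed the threshold (edgeR, adjusted p = 0.135), and was called higher under library totals and TPM.

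The remaining listed genes, of vesicle transport, small GTPases and 14-3-3 proteins, went in both directions with TMM. The ATPase gene nsf1, which takes apart spent SNARE complexes, was at 75.2 ± 2.79 CPM in QM6a and 132 ± 9.86 CPM in Δace1 (SD, n = 3 each). It rose by 0.81 on the log2 scale (edgeR, adjusted p = 3.19e-08) and was the gene above hac1. The Rab GTPase gene ypt1 rose by 0.31, sec1, whose product binds SNAREs at the plasma membrane, by 0.25, and the plasma membrane SNARE gene sso1 by 0.22 on the log2 scale. The first 3 of these 4 were called higher under TMM, RLE, upper-quartile scaling, library totals, TPM and DESeq2, and sso1 under all but DESeq2 (0.20, adjusted p = 0.105). The sso1 call with TMM was lost without Δace1 replicate 1 (0.18), QM6a replicate 1 (0.18) or QM6a replicate 2 (0.21). The vesicle SNARE gene snc1 differed by 0.09 with TMM, which missed the threshold (edgeR, adjusted p = 0.423), and was called higher with upper-quartile scaling (0.25), library totals (0.59) and on log2(TPM + 1) (0.86). The COPII coat GTPase gene sar1, which acts at the exit from the endoplasmic reticulum, fell by 0.15 with TMM and was called higher under library totals and TPM. Its call with TMM did not survive leaving out Δace1 replicate 2 or 3 or QM6a replicate 2 or 3 (-0.15 to -0.12), nor the replicate block (-0.14). The 14-3-3 genes ftt1 and ftt2 fell by 0.35 and 0.32 and the cell wall GTPase gene rho1 by 0.45 with TMM, and these 3 were called higher on log2(TPM + 1). The GTPase gene rho3 differed by -0.16 with TMM, which missed the threshold (edgeR, adjusted p = 0.0737), was called lower without QM6a replicate 1 (-0.22), and was called higher under library totals and TPM.

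**Figure D5:**
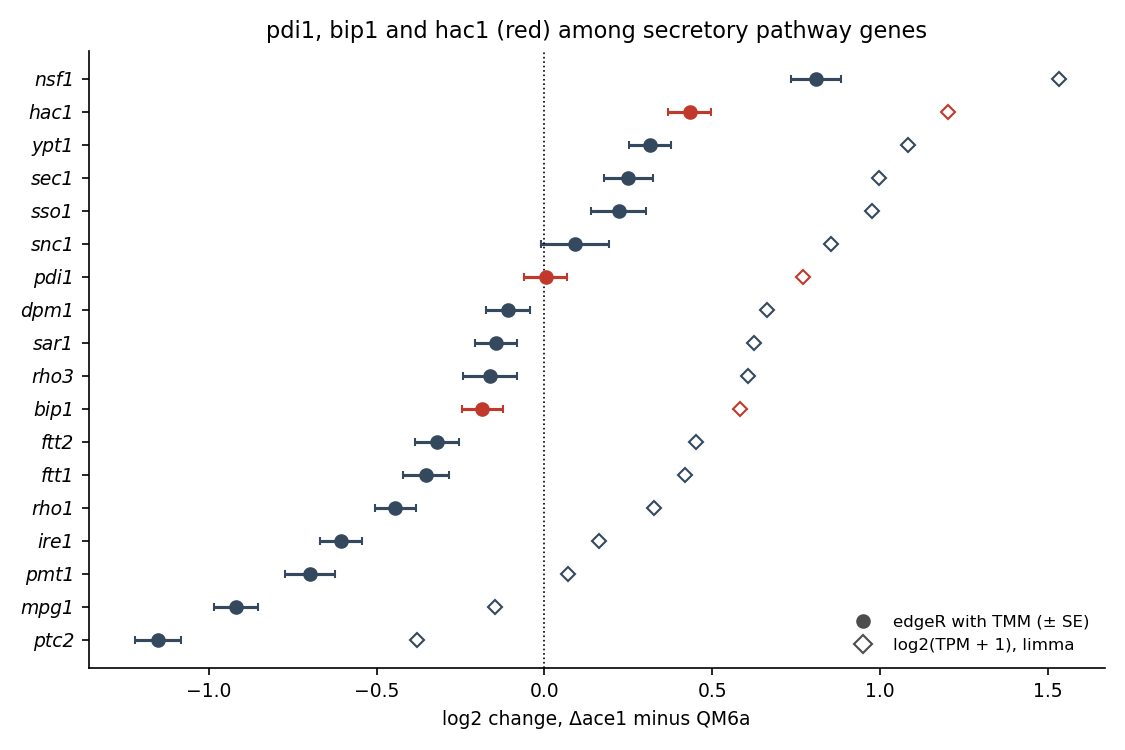
Change of pdi1, bip1 and hac1 (red) and of 15 secretory pathway genes (dark), as the log2 change with TMM (filled circles, ± SE) and on log2(TPM + 1) (open diamonds). The diamonds lie to the right of the circles for every gene, and hac1 stands second from the top with TMM.

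The genes most like each of the 3 in pattern were sought among 6536 others with a mean of at least 10 CPM, by the root mean square difference of centred log2 CPM over the 6 libraries. Nearest to hac1 were TRIREDRAFT_119830 (0.0187), TRIREDRAFT_75063 (0.0196), TRIREDRAFT_107187 (0.0231) and TRIREDRAFT_76451 (0.0289), none with a symbol. Nearest to bip1 were TRIREDRAFT_123493 (0.0225), TRIREDRAFT_64963 (0.0241), TRIREDRAFT_122506 (0.0249) and TRIREDRAFT_106113 (0.0273). Nearest to pdi1 were TRIREDRAFT_75580 (0.0171), TRIREDRAFT_54521 (0.0203), TRIREDRAFT_119739 (0.0313) and TRIREDRAFT_57220 (0.0329). By this measure bip1 was 360th in the order from pdi1, and pdi1 was 446th from bip1, at a distance of 0.101. From pdi1 hac1 was 1839th (0.222), and from bip1 it was 2796th (0.316). The libraries share their scaling factors, which enter all these profiles alike.

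No gene next to pdi1, bip1 or hac1 in the order of the reference table overlapped it. The gene listed before hac1, TRIREDRAFT_59152, rose by 3.51 on the log2 scale with TMM, and the gene after it, TRIREDRAFT_121171, by 0.32. The neighbours of pdi1 had log2 changes of -0.02 and 0.31 and neither passed the test, the latter with an adjusted p of 0.0501 in edgeR. Of the neighbours of bip1, TRIREDRAFT_65695 rose by 0.59, whereas TRIREDRAFT_65530 differed by 0.02 and was not called.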

How the data were processed

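RNA-seq of 6 libraries was used. FastQC 0.11.5, kallisto 0.43.1 and DESeq2 1.14.1 come from the submitters' processing notes. For the transcript set and the genome build, a name is not given in the sources used here. Per the file headers, the deposited sample tables hold an estimated count, a TPM and a length per transcript. The deposited gene table holds a normalized signal, a count divided by 1 factor per library. After multiplication by the factor 92.5% to 96.1% of values were whole reads (within 0.05). Genes and transcripts were joined by their counts: 8526 of 9113 genes had a single partner, the 3 folding genes included. Expected counts were rounded and tested with edgeR 4.0.16 (quasi-likelihood, TMM, filterByExpr, robust) in R 4.3.3, two-sided, called below an adjusted p of 0.05 over 7769 genes. Alternatives used DESeq2 1.42.0 and limma 3.58.1; genes with a mean below 1 were left out of the limma fits. The edgeR, DESeq2 and limma fits were run on simulated data with a small share of genes changed, equally up and down. No difference in composition between the strains was built in, so that run could not test the choice of scaling.

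The genes and lists were chosen with earlier results of these data known. Named were the 3 genes, the listed secretory genes, and the 4 nearest patterns of each. Neighbouring genes and the ratios to ire1 and ptc2 were added after values were seen. The symbol crt1 was listed as calreticulin only and was not matched. Protein and promoter sequences were not used here, so the list of proteins by retention signal and the sequence features were not run. No pair of replicates agreed within sampling noise (chi-square per degree of freedom 2.87 to 27.6). In Δace1 replicate 3 stood apart (27.6 and 20.6, against 4.09 between replicates 1 and 2). In QM6a replicate 1 did so (9.89 and 12.0, against 2.87 between replicates 2 and 3). Counts limit precision by counting error, which intervals of the fits include.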

Additional observations from a re-analysis of the deposited data

How the results depend on the processing

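The change of hac1 kept its direction and its call under every alternative run (0.41 to 1.21; 0.399 to 0.474 without single libraries). That of bip1 was called lower, as with TMM, under RLE (-0.197), DESeq2 (-0.205) and log2(normalized count + 1) (-0.205). It was not called with upper-quartile scaling (-0.027) or at least 50 counts in 3 samples (-0.13). It turned to 0.314 with library totals, 0.584 on log2(TPM + 1) and 0.586 on log2(TPM + 0.1), and ranged from -0.22 to -0.163 without single libraries. That of pdi1, near 0 with TMM, was -0.0086 with RLE, -0.0167 with DESeq2, -0.0172 on log2(normalized count + 1) and -0.0056 with no low count filter, none of them called. It was called higher with upper-quartile scaling (0.162), library totals (0.503), log2(TPM + 1) (0.77) and log2(TPM + 0.1) (0.774), and ranged from -0.0479 to 0.036 without single libraries. Without single libraries the strain difference of the log2 ratio was 0.587 to 0.676 for hac1 to bip1. It was 0.402 to 0.47 for hac1 to pdi1 and 0.163 to 0.216 for pdi1 to bip1. Leaving out 1 of 3 libraries cannot move such a difference by 1 SD pooled over the strains. Nor can it change the sign where the strains do not overlap, so these ranges give only the size of the moves. Taking TPM or normalized counts in place of counts leaves the strain difference of a ratio nearly unchanged by construction. Those alternatives therefore could not test it.

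Between 5709 and 6777 genes were called under all alternatives, and 10 to 13 of the 15 listed genes. Recovered reads, added after seeing the data, called 6274. No pairing by replicate number was visible: deviations of same-numbered libraries correlated at -0.0176, 0.0613 and -0.0595. Those of other-numbered libraries correlated at -0.119 to 0.0974. With 3 libraries per strain this cannot establish that libraries were not handled in pairs. With the replicate block 6223 genes and 11 listed genes were called. The changes of hac1 (0.434) and bip1 (-0.185) kept their calls, pdi1 (0.0024) stayed uncalled, and sar1 was no longer called. Pairing by replicate number cannot change the mean difference of a ratio. Each ratio then had p = 0.25 in a two-sided exact permutation test of the paired differences. That is the smallest p so few pairs allow, and every paired difference was positive for each ratio. The size of this p therefore cannot tell whether pairing weakens the differences. The list by retention signal was not run. Which scaling is nearest to the amount of RNA per cell cannot be told from these files.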
